A study of Mus musculus with 8 samples.

Results

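Immediate early genes and heat shock genes were followed as a set of 40 genes, chosen by symbol from the 30395 gene identifiers measured in each library. They comprised 30 early genes and 10 chaperone genes, and all 40 were found. Of these, 39 entered the tests, which required at least 1 CPM (reads per 1000000 reads of a library) in at least 2 libraries. Egr3, an early transcription factor, was left out: it had 1 read in stellate BDL replicate 1 and none in the other libraries. The 8 libraries came from sorted mouse liver cells in 4 groups of 2: Gli1+ peribiliary mesenchymal cells 5 d after bile duct ligation (BDL, which blocks bile flow), the same cells from uninjured liver, stellate cells 5 d after BDL, and stellate cells from uninjured liver. Every group, stellate cells included, carried the genotype Gli1:CreER+/-; Ai9+/- on a mixed C57BL/6 and SWR/J background at 8 weeks of age. In this genotype a tamoxifen-dependent Cre, driven by the Gli1 promoter, removes the stop before a red fluorescent protein. For sort gates and tamoxifen schedule, nothing is given in the sources used here. Whether the replicates were separate animals is not stated, so a p-value reflects the scatter of these libraries alone, and that scatter may be technical.

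Immediate early genes are transcribed within minutes of a stimulus, without new protein synthesis, when kinase cascades reach transcription factors already present in the cell, such as SRF with its ternary complex partners and CREB. Many encode transcription factors (the Fos and Jun families, which pair to form AP-1, and the Egr, Nr4a and Klf families). Others, such as Dusp1, Zfp36 and Socs3, encode proteins that switch the signal off again. Heat shock genes are driven by HSF1, which binds heat shock elements when unfolded proteins accumulate, and encode chaperones that refold proteins or hand them to degradation. Both programs are known to start during enzymatic digestion of tissue and cell sorting. Here all groups shared one protocol of perfusion, pronase and collagenase digestion, gradient separation and sorting, and no undissociated liver was analysed. The share of a level that arose during isolation was therefore not tested, and in bulk libraries fewer expressing cells and less RNA per cell cannot be told apart.

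Library totals ran from 11261775 to 19180370 reads, and mitochondrial genes took 0.808% to 5.72% of the reads. Summed CPM of 9 stellate markers ran from 22887 to 66899 in stellate libraries and from 817 to 1865 in Gli1+ libraries, whereas 9 portal fibroblast markers summed to 2583 to 9133 CPM in Gli1+ libraries and to 24.5 to 112 CPM in stellate libraries. The Gli1+ libraries also held 6 cholangiocyte markers at 3133 to 15092 CPM and 6 mesothelial markers at 2586 to 8229 CPM, against at most 756 and 9.28 CPM in stellate libraries. Krt19 is in both of these lists, so the sums are not separate. The 3 neutrophil markers summed to at most 7.12 CPM, and Ly6g among them was at 0 in 6 libraries. Sums of 8 macrophage markers set the uninjured stellate libraries apart, with 8535 CPM in replicate 1 and 49.9 CPM in replicate 2, against 1125 to 2602 CPM in the other 6 libraries. Sums of 6 endothelial markers were 451 CPM in uninjured stellate replicate 1 and 89.8 CPM in replicate 2, where Stab2 was at 0. Medians and calls that rest on these 2 libraries are given with and without each of them.

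The early genes together were least abundant in Gli1+ cells after BDL. Their summed level was 2753 and 2997 CPM in Gli1+ BDL, 5170 and 5795 CPM in Gli1+ uninjured, 9243 and 5276 CPM in stellate BDL and 5354 and 5002 CPM in stellate uninjured libraries. The Gli1+ BDL libraries lay below the other 6, and stellate BDL replicate 1 lay far above its partner. The 10 chaperone genes summed to 899 and 679 CPM in Gli1+ BDL, 667 and 727 CPM in Gli1+ uninjured, 446 and 397 CPM in stellate BDL and 383 and 1450 CPM in stellate uninjured libraries. Here the Gli1+ groups overlapped, and the uninjured stellate libraries were the lowest and the highest of all. Of 29 early genes tested, 14 had their lowest group mean in Gli1+ BDL cells, against 17.9% of all 16446 genes tested, and 13 had their highest group mean in stellate BDL cells, against 18.3% of all genes. The lowest group mean was in uninjured stellate cells for 13 (39.8% of all genes). In Gli1+ BDL cells 6 had their highest group mean (33.3% of all genes).

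**Figure D1:**
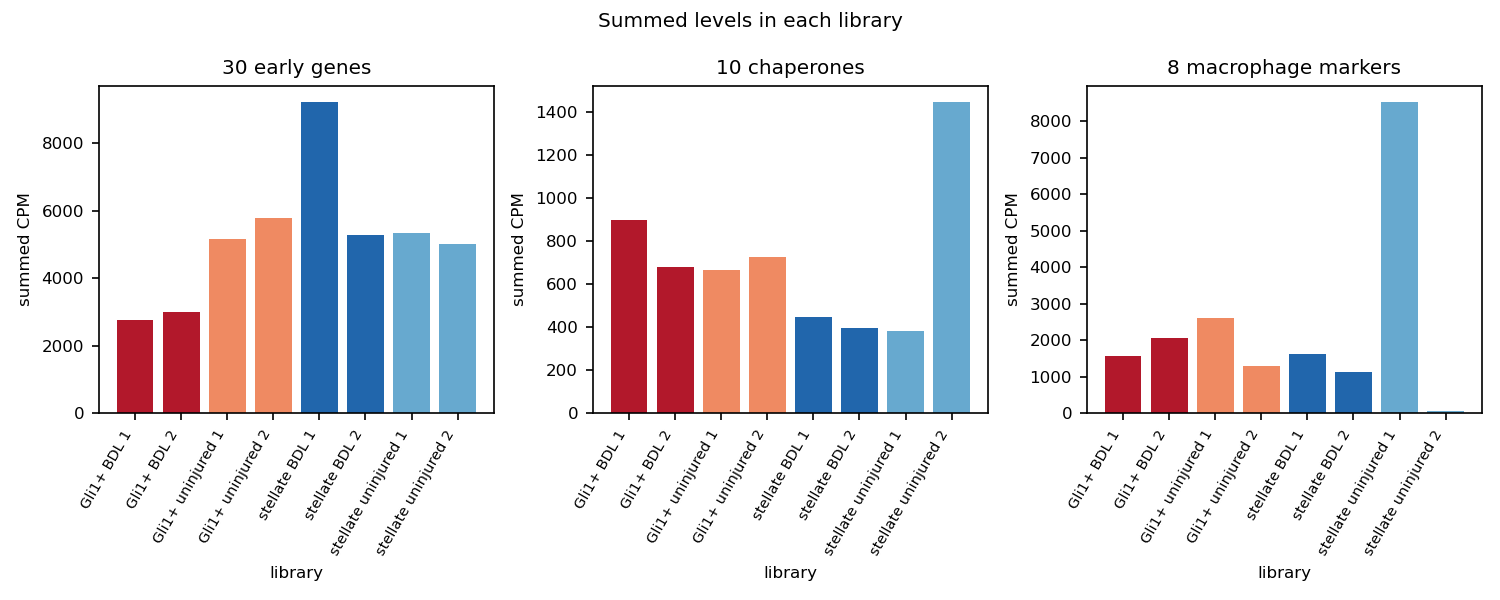
Summed CPM per library (bars, axes from 0) of the gene sets named above each panel, Gli1+ BDL, Gli1+ uninjured, stellate BDL and stellate uninjured libraries from left to right. The early genes are lowest in the Gli1+ BDL libraries (2753 and 2997 CPM) and the chaperones highest in uninjured stellate replicate 2 (1450 CPM).

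Levels per kb of exon, averaged over the 8 libraries, ordered the genes from Junb at 237 CPM per kb, Fos at 214, Ier2 at 193, Dusp1 at 182, Jun at 149, Zfp36 at 122 and Egr1 at 103 down to Nr4a2 and Nr4a3 at 1.11 and 1.08 and Egr3 at 0.00166. Among the chaperones, Hspb1 was highest at 56.8 CPM per kb and Hspa1b lowest at 2.11. The order differed between groups. Fos led in Gli1+ BDL at 106 and in Gli1+ uninjured cells at 252 CPM per kb, Junb in stellate BDL cells at 407 and Dusp1 in stellate uninjured cells at 281. Hspb1 was at 84.9 in Gli1+ BDL and 109 in Gli1+ uninjured cells but at 15.4 in stellate BDL and 17.4 CPM per kb in stellate uninjured cells, where Bag3 (26.8, stellate BDL) and Dnajb1 (86.8, stellate uninjured) led the chaperones. Over the 8 libraries, the gap between Junb and Fos was smaller than the spread of either gene over its libraries, as was that between Nr4a2 and Nr4a3.

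**Figure D2:**
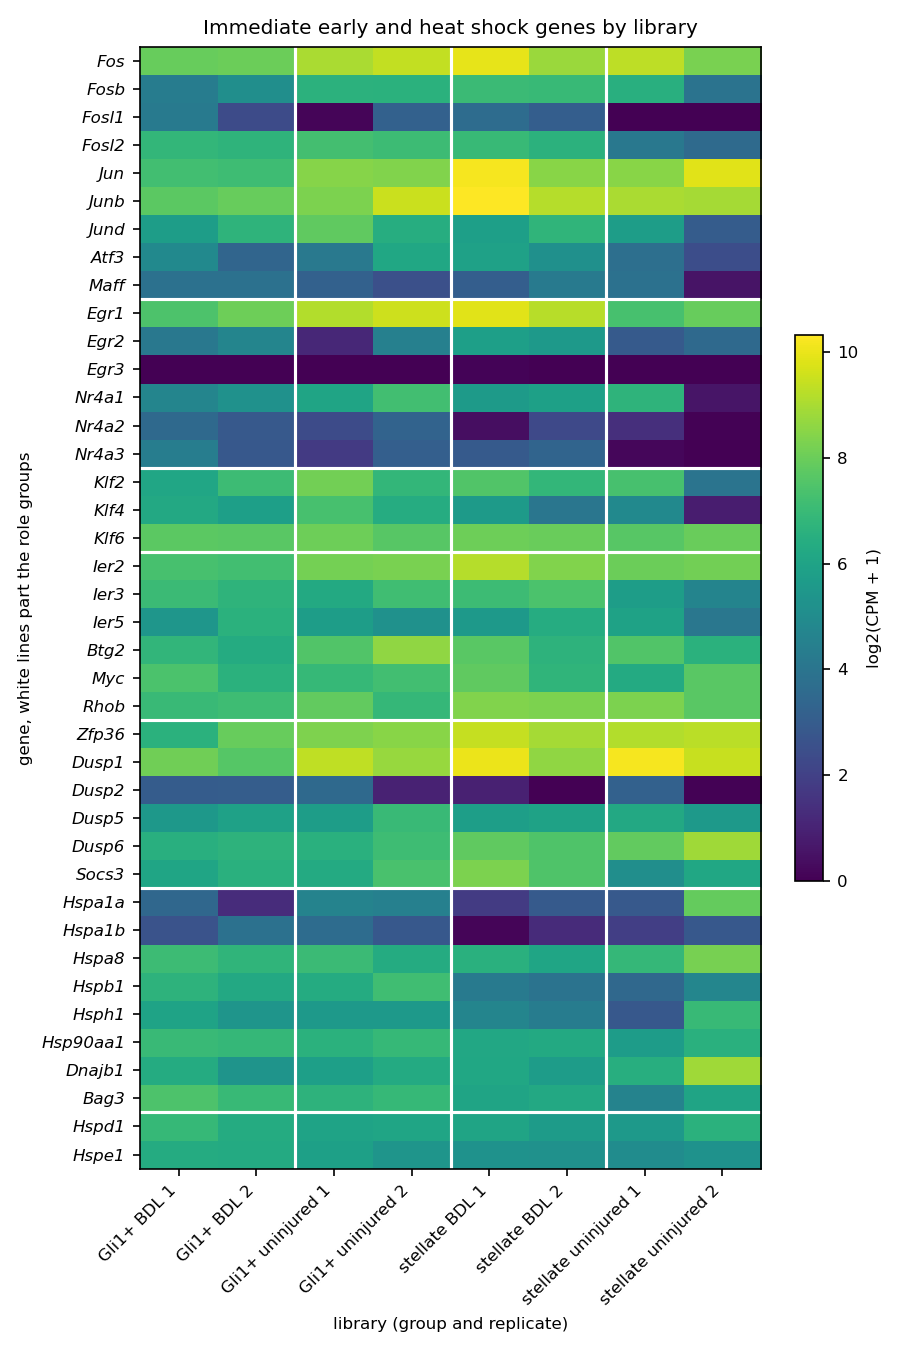
Levels of the 40 genes as log2(CPM + 1) (color) in the 8 libraries (columns), genes ordered by role. The most abundant rows are Junb, Fos, Dusp1 and Jun, and the uninjured stellate columns differ from each other most visibly at Nr4a1, Klf4, Hspa1a and Hsph1.

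Among the AP-1 genes, Fos, a partner of the Jun proteins, had 241 and 259 CPM in Gli1+ BDL, 513 and 673 CPM in Gli1+ uninjured, 976 and 441 CPM in stellate BDL and 622 and 301 CPM in stellate uninjured libraries. Its Gli1+ BDL libraries were the lowest of all 8, while the stellate groups overlapped. Fosb, a close relative of Fos, had 19.1 and 33 CPM in Gli1+ BDL, 98 and 94.7 CPM in Gli1+ uninjured, 132 and 124 CPM in stellate BDL and 90.8 and 14.1 CPM in stellate uninjured libraries. Again Gli1+ BDL libraries lay below Gli1+ uninjured ones, whereas in stellate cells both BDL libraries lay above both uninjured ones. Fosl2, a Fos family member that persists longer after a stimulus (chromosome 5, 32135801 to 32157842, plus strand), had 113 and 104 CPM in Gli1+ BDL, 152 and 134 CPM in Gli1+ uninjured, 124 and 99.4 CPM in stellate BDL and 16.6 and 11 CPM in stellate uninjured libraries. The uninjured stellate libraries stood apart at the low end, and the other 6 libraries lay within a narrow range. Fosl1, another Fos relative, had 18.1 and 4.19 CPM in Gli1+ BDL, 0.0888 and 8.16 CPM in Gli1+ uninjured, 11.7 and 7.48 CPM in stellate BDL and 0 and 0 CPM in stellate uninjured libraries. No read of it was found in uninjured stellate cells, and the Gli1+ groups overlapped.

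Jun, the core AP-1 subunit, had 145 and 137 CPM in Gli1+ BDL, 346 and 327 CPM in Gli1+ uninjured, 1182 and 358 CPM in stellate BDL and 360.5 and 933 CPM in stellate uninjured libraries. The 4 Gli1+ libraries were the lowest, and each stellate group held 1 high and 1 low library. Junb, a Jun relative that often restrains Jun activity (chromosome 8, 84974484 to 84978718, minus strand), had 208 and 242 CPM in Gli1+ BDL, 309.9 and 717 CPM in Gli1+ uninjured, 1288 and 587 CPM in stellate BDL and 520.4 and 492 CPM in stellate uninjured libraries. Its Gli1+ BDL libraries lay below all other libraries. Jund, the Jun relative with the most constitutive expression, had 53.3 and 104 CPM in Gli1+ BDL, 223 and 84.6 CPM in Gli1+ uninjured, 55.8 and 107 CPM in stellate BDL and 52.7 and 6.93 CPM in stellate uninjured libraries. The groups overlapped between BDL and uninjured in Gli1+ cells, and uninjured stellate replicate 2 was far below every other library. Atf3, a stress-induced repressor of the same leucine zipper class, had 29.3 and 9.34 CPM in Gli1+ BDL, 17.3 and 70.3 CPM in Gli1+ uninjured, 59.4 and 35.2 CPM in stellate BDL and 12.6 and 4.43 CPM in stellate uninjured libraries. Stellate BDL libraries exceeded both uninjured stellate libraries, with overlap between the Gli1+ groups. Maff, a small partner factor with no transactivation domain, ranged from 0.469 to 17.8 CPM over the libraries.

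Egr1, a zinc finger factor induced through SRF (chromosome 18, 34859823 to 34864984, plus strand), had 173 and 263 CPM in Gli1+ BDL, 568 and 737 CPM in Gli1+ uninjured, 941 and 602 CPM in stellate BDL and 157 and 242 CPM in stellate uninjured libraries. Gli1+ uninjured and stellate BDL libraries were high and overlapped, and Gli1+ BDL and stellate uninjured libraries were low and overlapped. Egr2, its relative, had 16.5 and 25.2 CPM in Gli1+ BDL, 1.24 and 21.5 CPM in Gli1+ uninjured, 56.6 and 47.5 CPM in stellate BDL and 6.67 and 10.7 CPM in stellate uninjured libraries. Stellate BDL libraries were the highest of all 8. Nr4a1, Nr4a2 and Nr4a3 encode orphan nuclear receptors. Nr4a2 had 10.6 and 6.47 CPM in Gli1+ BDL, 4.17 and 8.9 CPM in Gli1+ uninjured, 0.292 and 3.82 CPM in stellate BDL and 1.65 and 0.0521 CPM in stellate uninjured libraries. Its stellate libraries all lay below the Gli1+ libraries. Nr4a3 had 19.8 and 6.23 CPM in Gli1+ BDL, 2.4 and 7.65 CPM in Gli1+ uninjured, 6.6 and 9 CPM in stellate BDL and 0.122 and 0 CPM in stellate uninjured libraries. The uninjured stellate libraries held 2 reads of it in all. Nr4a1 ranged from 0.521 CPM in uninjured stellate replicate 2 to 146 CPM in Gli1+ uninjured replicate 2.

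Of the Klf zinc finger factors, Klf4 had 74.5 and 56.2 CPM in Gli1+ BDL, 161 and 83.1 CPM in Gli1+ uninjured, 48.9 and 15.6 CPM in stellate BDL and 28.9 and 0.782 CPM in stellate uninjured libraries. Both Gli1+ groups lay above the stellate group of the same condition. Klf6, known in rat as an early gene of stellate cell activation, had 212 and 205 CPM in Gli1+ BDL, 266 and 199.6 CPM in Gli1+ uninjured, 266 and 253 CPM in stellate BDL and 197 and 250.1 CPM in stellate uninjured libraries. These levels were nearly flat across libraries. Klf2, a factor best known for its response to blood flow in endothelium, ranged from 14.6 CPM in uninjured stellate replicate 2 to 278 CPM in Gli1+ uninjured replicate 1.

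Ier2, a nuclear early response protein (chromosome 8, 84661331 to 84662852, minus strand), had 158 and 145 CPM in Gli1+ BDL, 289.7 and 308 CPM in Gli1+ uninjured, 579 and 328 CPM in stellate BDL and 260.1 and 278 CPM in stellate uninjured libraries. Gli1+ BDL libraries were the lowest pair and did not overlap with any other group. Ier3, an early gene tied to cell survival, had 131 and 104 CPM in Gli1+ BDL, 76.5 and 144 CPM in Gli1+ uninjured, 134 and 169 CPM in stellate BDL and 52.8 and 24.2 CPM in stellate uninjured libraries. Stellate BDL libraries lay above the uninjured stellate libraries. Btg2, an antiproliferative cofactor, had 110.4 and 81.4 CPM in Gli1+ BDL, 184 and 393 CPM in Gli1+ uninjured, 205 and 102 CPM in stellate BDL and 181 and 95 CPM in stellate uninjured libraries. The Gli1+ BDL libraries lay below the Gli1+ uninjured ones, and the stellate groups overlapped. Myc, the growth regulator, had 169 and 94.8 CPM in Gli1+ BDL, 119 and 147 CPM in Gli1+ uninjured, 223 and 107 CPM in stellate BDL and 78.5 and 207 CPM in stellate uninjured libraries. Groups overlapped in every comparison. Rhob, a small GTPase with a short-lived transcript, had 127 and 136 CPM in Gli1+ BDL, 231 and 117 CPM in Gli1+ uninjured, 334 and 316 CPM in stellate BDL and 313 and 207 CPM in stellate uninjured libraries. Stellate BDL libraries were the highest of all 8. Ier5, a target of HSF1, ranged from 16.1 to 95.01 CPM.

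Among the feedback regulators, Zfp36 encodes tristetraprolin, which binds AU-rich elements and speeds decay of short-lived mRNAs (chromosome 7, 28376784 to 28380253, minus strand), and had 94.8 and 246 CPM in Gli1+ BDL, 319.9 and 363 CPM in Gli1+ uninjured, 694 and 484 CPM in stellate BDL and 567 and 611 CPM in stellate uninjured libraries. Gli1+ BDL libraries were the lowest pair. Dusp1, a phosphatase that inactivates p38 and JNK kinases, had 269 and 193 CPM in Gli1+ BDL, 648 and 427 CPM in Gli1+ uninjured, 1042 and 388 CPM in stellate BDL and 1154 and 706 CPM in stellate uninjured libraries. Here too the lowest pair was Gli1+ BDL. Dusp6, a cytoplasmic phosphatase specific for ERK (chromosome 10, 99263231 to 99267489, plus strand), had 91.9 and 102 CPM in Gli1+ BDL, 92.8 and 139 CPM in Gli1+ uninjured, 224 and 179 CPM in stellate BDL and 230.3 and 458 CPM in stellate uninjured libraries. All 4 stellate libraries lay above all 4 Gli1+ libraries. Socs3, an inhibitor of cytokine signaling through JAK and STAT, had 67 and 93.9 CPM in Gli1+ BDL, 79.6 and 162 CPM in Gli1+ uninjured, 316 and 180.1 CPM in stellate BDL and 33.5 and 71.2 CPM in stellate uninjured libraries. Stellate BDL libraries were the highest pair and uninjured stellate libraries low. Dusp2 had 7.09 and 7.18 CPM in Gli1+ BDL, 10.7 and 0.97 CPM in Gli1+ uninjured, 0.934 and 0 CPM in stellate BDL and 8.32 and 0.0521 CPM in stellate uninjured libraries, and Dusp5, another ERK phosphatase, ranged from 44.6 to 127 CPM. Of Dusp2, the stellate BDL libraries held few reads or none.

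Among the chaperones, Hspb1, a small heat shock protein that holds unfolding proteins and binds actin filaments (chromosome 5, 135887919 to 135889563, plus strand), had 100.3 and 74.9 CPM in Gli1+ BDL, 81.9 and 144 CPM in Gli1+ uninjured, 17.5 and 14.3 CPM in stellate BDL and 10.3 and 25.5 CPM in stellate uninjured libraries. Every Gli1+ library lay above every stellate library. Hspa1a and Hspa1b encode the stress-induced HSP70. Hspa1a had 9.99 and 1.5 CPM in Gli1+ BDL, 23.4 and 21.3 CPM in Gli1+ uninjured, 2.45 and 6.54 CPM in stellate BDL and 6.3 and 236 CPM in stellate uninjured libraries. Uninjured stellate replicate 2 held 37.4 times the level of replicate 1. Hspa1b had 5.32 and 13.5 CPM in Gli1+ BDL, 11.6 and 6.28 CPM in Gli1+ uninjured, 0.117 and 1.44 CPM in stellate BDL and 2.81 and 6.26 CPM in stellate uninjured libraries. The coding sequences of these neighbouring genes on chromosome 17 were 99.4% identical, with 11 differing positions in 1929 aligned columns, so the split of reads between them is uncertain. Their sum was 15.3 and 15.03 CPM in Gli1+ BDL, 35.1 and 27.6 CPM in Gli1+ uninjured, 2.57 and 7.99 CPM in stellate BDL and 9.11 and 242 CPM in stellate uninjured libraries. The remaining chaperones ranged from 23.5 to 175 CPM for Bag3, a cochaperone of HSP70, from 52.1 to 127 CPM for Hsp90aa1, the inducible HSP90, from 45.3 to 120 CPM for Hspd1 and from 31.6 to 81.3 CPM for Hspe1, the mitochondrial chaperonin pair. Processed copies of Hspa8, Hspd1 and Hspe1 are scattered in the genome, which makes these levels less certain too.

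In Gli1+ cells, no gene of the set passed the threshold between BDL and uninjured liver, although early genes leaned low. Fold changes are given as differences in log2(CPM + 1), with the standard error (SE) of a limma-trend fit to all 8 libraries and Benjamini-Hochberg adjustment over all 16446 genes, at a threshold of 0.05. The early genes with a log2 fold change below 0 numbered 21 of 29, against 43.7% of all genes, with a median of -0.67 beside 0.12 over all genes. BDL and uninjured libraries did not overlap for 12 early genes that were lower after BDL (16.2% of all genes) and for 1 that was higher, Maff (25.1% of all genes). Those lower were Fos, Fosb, Fosl2, Jun, Junb, Egr1, Nr4a1, Klf4, Ier2, Btg2, Zfp36 and Dusp1.

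Egr1 averaged 218 ± 63.4 CPM in Gli1+ BDL and 652 ± 119.8 CPM in Gli1+ uninjured libraries (SD, n = 2 each), a log2 fold change of -1.60 ± 0.38 (SE, limma adjusted p = 0.127). Fos averaged 249.9 ± 13.1 CPM in Gli1+ BDL and 593 ± 113 CPM in Gli1+ uninjured libraries, with a log2 fold change of -1.23 ± 0.47 (limma adjusted p = 0.357). For Fosb the log2 fold change was -1.90 ± 0.73 (limma adjusted p = 0.369). These differences were seen in both libraries but did not pass. At an unadjusted p under 0.05 limma listed 7 early genes, all lower after BDL (3.92% of all genes), and no chaperone. Over all genes limma called 0 (0%), with 1812 at an unadjusted p under 0.05. With edgeR 0 members were called, and with DESeq2 1 was, Egr1, which was lower. Marker sums moved with condition too, both those of portal fibroblasts, which set the Gli1+ libraries apart from the stellate ones, and those of other cells. Portal fibroblast markers summed to 3028 and 2583 CPM in Gli1+ BDL against 9133 and 6254 CPM in Gli1+ uninjured libraries, cholangiocyte markers to 15092 and 7319 against 3861 and 3133 CPM, and 6 hepatocyte markers to 2231 and 11873 against 941 and 132 CPM. Their part in the early gene differences was not tested.

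The chaperones did not follow the early genes in Gli1+ cells. Their log2 fold changes were above 0 for 6 of 10 (56.1% of all genes) and below 0 for 4, with a median of 0.16 beside 0.12 over all genes. Bag3, Hspd1 and Hspe1 were higher after BDL with no overlap (25.1% of all genes), and Hspa1a was lower with no overlap (16.2% of all genes). Hspa1a was at 9.99 and 1.5 CPM in Gli1+ BDL against 23.4 and 21.3 CPM in Gli1+ uninjured libraries. The lowest limma adjusted p among the 10 was 0.569.

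In stellate cells the early genes leaned the other way. Log2 fold changes between BDL and uninjured liver were above 0 for 24 of 29 early genes, against 60.8% of all genes, with a median of 0.98 beside 0.19 over all genes. The only member past the threshold was Fosl2, which rose to 112 ± 17.7 CPM in stellate BDL, against 13.8 ± 3.98 CPM in stellate uninjured libraries (SD, n = 2 each). This was an 8.1-fold higher mean and a log2 fold change of 2.95 ± 0.36 (limma adjusted p = 0.0236). It was 1 of 37 genes called, 0.225% of those tested, all higher after BDL. Leaving out 1 library at a time kept this call only without either uninjured stellate library (limma adjusted p = 0.0102 without replicate 1 and 0.0241 without replicate 2) and ended it without any of the other 6, with an adjusted p of up to 0.348 without stellate BDL replicate 2. With edgeR Fosl2 was again the member called, and DESeq2 called 6 members higher (Egr1, Fosl1, Fosl2, Ier3, Nr4a3 and Socs3) and 2 lower (Dnajb1 and Hspa1a). Marker sums moved with condition here as well. Stellate markers summed to 27027.5 and 22887 CPM in stellate BDL against 43744 and 66899 CPM in stellate uninjured libraries. In stellate BDL libraries the endothelial sums were 1816 and 1252 CPM, against 451 and 89.8 CPM in stellate uninjured ones. In the same order, hepatocyte markers summed to 1318 and 1132 against 96.6 and 33.2 CPM, and cholangiocyte markers to 181 and 756 against 3.36 and 3.75 CPM. Their part in the stellate response was not tested.

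The AP-1 genes had log2 fold changes above 0 in 9 of 9 cases in stellate cells, 6 of them without overlap between groups. Libraries did not overlap for 14 early genes that were higher after BDL (27.4% of all genes) and for 1 that was lower, Dusp6 (12.2% of all genes). Egr1 averaged 772 ± 239.7 CPM in stellate BDL and 199 ± 59.5 CPM in stellate uninjured libraries, a log2 fold change of 1.94 ± 0.38 (limma adjusted p = 0.104). The log2 fold change was 2.26 for Socs3 (limma adjusted p = 0.139), 2.04 for Ier3 (limma adjusted p = 0.144) and 2.44 for Atf3 (limma adjusted p = 0.293). None of these passed.

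The chaperones of stellate cells had log2 fold changes below 0 in 7 of 10 cases (36% of all genes; 8 after TMM scaling, Hsp90aa1 changing sign), with a median of -0.30. BDL libraries lay below both uninjured libraries for 3 of them, Hspa1b, Hspa8 and Dnajb1 (12.2% of all genes), and above both for none (27.4% of all genes). Hspa1a had the lowest value, -3.03 ± 1.47 (limma adjusted p = 0.472), and Dnajb1 had -1.74 ± 0.71 (limma adjusted p = 0.371). At an unadjusted p under 0.05 limma listed 2 chaperones, Hspa8 and Dnajb1, both lower (2.32% of all genes were lower at that level). Hspa8 had a log2 fold change of -1.24 ± 0.48 (limma adjusted p = 0.347). After adjustment limma and edgeR called no chaperone, while DESeq2 called Dnajb1 (adjusted p = 0.0300) and Hspa1a (adjusted p = 0.00338) lower. The uninjured libraries behind these values differed widely.

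Some early genes were nearly absent from uninjured stellate cells. Fosl1 was at least 118-fold higher in stellate BDL cells, a bound from 3 reads over the uninjured group (limma adjusted p = 0.272). Nr4a3, with 2 reads in the uninjured group, had a ratio of 135 with a 95% interval of 36.8 to 1119 that covers counting error only (limma adjusted p = 0.217).

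**Figure D3:**
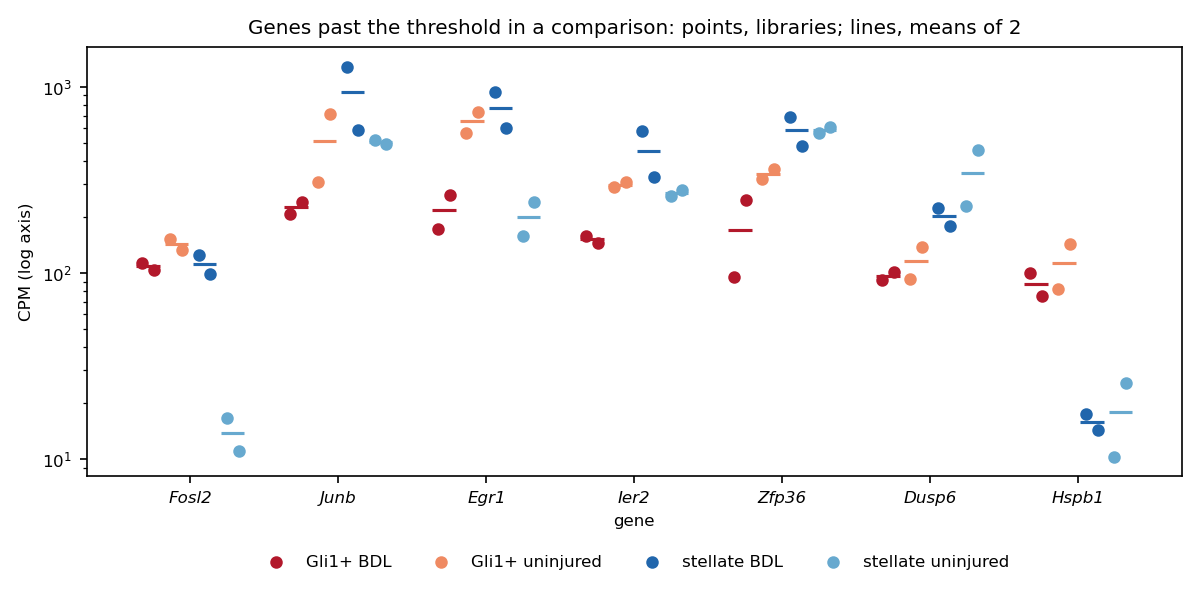
CPM (log axis) of the 7 genes that passed the threshold in at least 1 comparison, points for libraries and lines for the mean of 2 libraries per group. Fosl2 is low in uninjured stellate cells alone (16.6 and 11 CPM), and Hspb1 separates the Gli1+ from the stellate libraries.

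Both responses were compared directly as the difference of BDL responses, Gli1+ minus stellate. It was below 0 for 27 of 29 early genes, against 55.2% of all genes, with a median of -1.67 beside -0.12 over all genes. No member passed the threshold: limma called 2 genes in all (0.0122%), neither of the set. At an unadjusted p under 0.05 limma listed 9 early genes, all below 0 (4.71% of all genes), out of 1230 genes in all. The difference was -3.54 ± 0.53 for Egr1 and -3.34 ± 0.50 for Fosl2 (limma adjusted p = 0.151 for both), and -3.69 ± 1.04 for Fosb (limma adjusted p = 0.442). The edgeR fit called 0 members and DESeq2 called 2, Egr1 and Fosl2, both below 0. Without uninjured stellate replicate 1, limma called Fosb (-4.99, adjusted p = 0.0279), Fosl2 (-3.62, adjusted p = 0.0420) and Nr4a1 (-6.78, adjusted p = 0.0279), a fit in which the lone uninjured stellate library is assumed to vary like the other groups. Dusp2 and Dusp6 were the early genes above 0. Among the chaperones the difference was above 0 for 8 of 10 (44.8% of all genes), with a median of 0.71, and none was called by limma, edgeR or DESeq2.

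**Figure D4:**
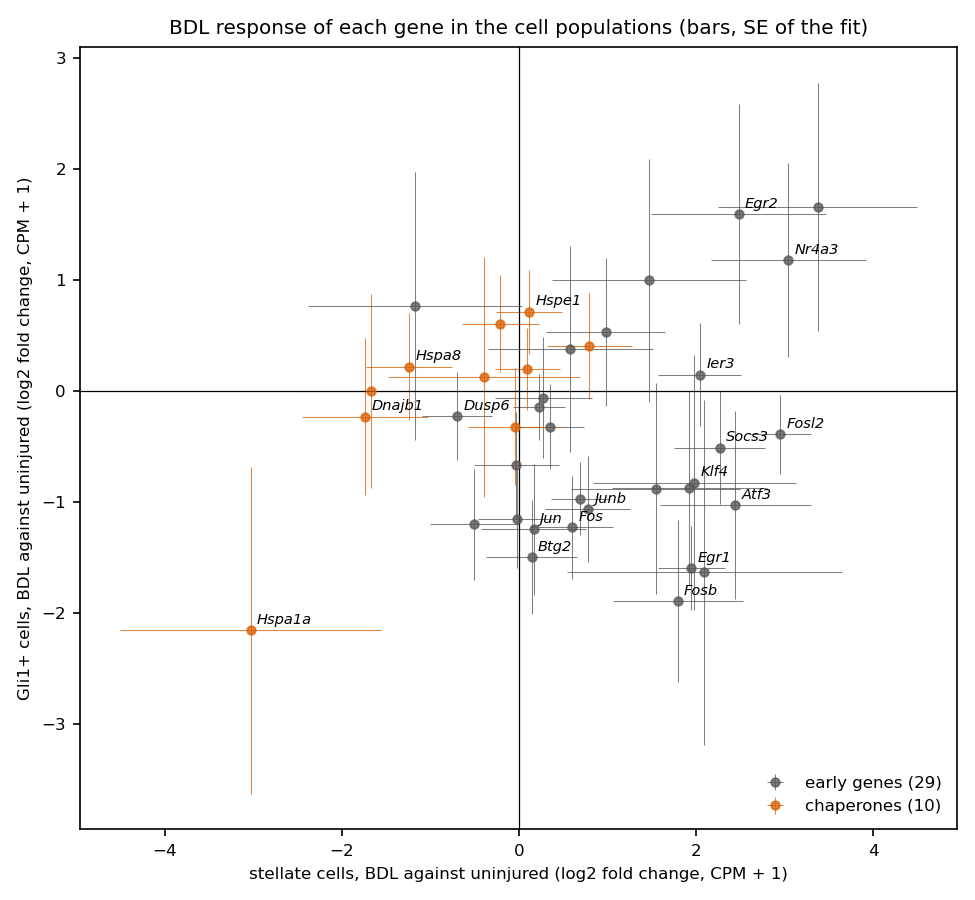
BDL response of each gene in stellate cells (x axis) and Gli1+ cells (y axis), as log2 fold changes on the CPM + 1 scale with SE bars. Of the 29 early genes 24 lie to the right of 0 and 21 lie below 0, with Egr1 at 1.94 and -1.60, and Hspa1a lies farthest to the left at -3.03.

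Between populations in uninjured liver, Fosl2, Egr1 and Hspb1 were higher in Gli1+ cells than in stellate cells, and Dusp6 was lower. Fosl2 averaged 143 ± 13.1 CPM in Gli1+ uninjured and 13.8 ± 3.98 CPM in stellate uninjured libraries (SD, n = 2 each), 10.3-fold higher, with a log2 fold change of 3.30 ± 0.36 (limma adjusted p = 0.000986). This call held when each of the 8 libraries was left out in turn, with adjusted p from 0.00106 to 0.0143. Hspb1 averaged 113 ± 43.8 CPM in Gli1+ uninjured and 17.9 ± 10.8 CPM in stellate uninjured libraries, with a log2 fold change of 2.66 ± 0.53 (limma adjusted p = 0.015). For Egr1 the log2 fold change was 1.72 ± 0.38 (limma adjusted p = 0.022). Dusp6 averaged 116 ± 32.5 CPM in Gli1+ uninjured and 344 ± 161 CPM in stellate uninjured libraries, and its log2 fold change was -1.51 ± 0.40 (limma adjusted p = 0.0438).

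These 3 higher and 1 lower calls compare with 8.06% and 3.02% of all genes, so the set was called no more often than genes in general. Leaving out 1 library ended the call of Egr1 without either Gli1+ BDL library, either Gli1+ uninjured library or uninjured stellate replicate 1 (adjusted p up to 0.111), that of Hspb1 without either Gli1+ BDL library or Gli1+ uninjured replicate 2 (up to 0.0885), and that of Dusp6 without any library but uninjured stellate replicate 1 (up to 0.212). With edgeR only Fosl2 and Hspb1 were called, and without the filter on low values only Fosl2. Among early genes 22 of 29 had log2 fold changes above 0 (62.2% of all genes), with a median of 0.66 beside 0.32 over all genes. After TMM scaling these were 19 of 29, Ier2, Klf6 and Myc changing sign. Klf4 had a log2 fold change of 3.999 (limma adjusted p = 0.0602) and Jund one of 2.75 (limma adjusted p = 0.0851), both with the lowest level in uninjured stellate replicate 2. By the same bound Gli1+ cells held at least 59.2-fold more Fosl1 (limma adjusted p = 0.421), which rests on Gli1+ uninjured replicate 2: without it the log2 fold change was 0.12 (limma adjusted p = 1). Nr4a3 had a ratio of 99.4 with a 95% interval of 27.1 to 827 (limma adjusted p = 0.135).

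After BDL, Junb, Egr1, Ier2 and Zfp36 were lower in Gli1+ cells than in stellate cells, and Hspb1 was higher. Egr1 averaged 218 ± 63.4 CPM in Gli1+ BDL and 772 ± 239.7 CPM in stellate BDL libraries (SD, n = 2 each), with a log2 fold change of -1.81 ± 0.38 (limma adjusted p = 0.0238). Ier2 averaged 152 ± 9.28 CPM in Gli1+ BDL and 453 ± 177 CPM in stellate BDL libraries, with a log2 fold change of -1.52 ± 0.33 (limma adjusted p = 0.0284). The log2 fold change was -1.92 ± 0.44 for Zfp36 (limma adjusted p = 0.0357) and -1.95 ± 0.48 for Junb (limma adjusted p = 0.0471). Hspb1 averaged 87.6 ± 17.9 CPM in Gli1+ BDL and 15.9 ± 2.29 CPM in stellate BDL libraries, with a log2 fold change of 2.38 ± 0.53 (limma adjusted p = 0.0307). Egr1 was thus higher in Gli1+ cells of uninjured liver and lower in those of ligated liver, while Hspb1 was higher in both.

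The calls after BDL were 4 lower (2.36% of all genes) and 1 higher (4.44% of all genes). Leaving out any Gli1+ BDL or stellate BDL library ended the calls of Egr1, Ier2, Junb and Hspb1 (adjusted p up to 0.225, 0.236, 0.336 and 0.222), and leaving out any uninjured library kept them. With edgeR only Ier2 was called, without the filter on low values no member was, and with TMM scaling Hspb1 was not. Zfp36 stayed past the threshold only without Gli1+ BDL replicate 2 or either uninjured stellate library (up to 0.274). Log2 fold changes were below 0 for 23 of 29 early genes (39.4% of all genes), with a median of -0.61 beside 0.23 over all genes, and 16 early genes were lower with no overlap (19% of all genes). After TMM scaling the count was 24, Ier5 changing sign. Jun had a log2 fold change of -2.20 (limma adjusted p = 0.0647) and Fosb one of -2.30 (limma adjusted p = 0.11). Stellate BDL replicate 1 was the highest library of all 8 for 12 of 29 early genes, against 7.69% of all genes.

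In the same comparison the chaperones were on the other side. Log2 fold changes of Gli1+ against stellate BDL cells were above 0 for 9 of 10 chaperones (60.4% of all genes; 8 after TMM scaling, Hspa1a changing sign), with a median of 0.94. Libraries did not overlap for 8 of the 10, all higher in Gli1+ cells (34.8% of all genes): Hspa1b, Hspa8, Hspb1, Hsph1, Hsp90aa1, Bag3, Hspd1 and Hspe1. In uninjured liver the chaperone median was 0.54 in the limma fit but -0.05 with edgeR and -0.02 with DESeq2, and 5 chaperones were higher in Gli1+ cells without overlap (31.1% of all genes) and Dnajb1 was lower (14.6% of all genes).

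The 2 uninjured stellate libraries disagreed over much of the set. Between them 22 of 39 genes differed over 2-fold, against 36.8% of all genes, and in the other groups 7, 12 and 10 did for Gli1+ BDL, Gli1+ uninjured and stellate BDL (26%, 35.8% and 22.6% of all genes). All 10 chaperones were higher in replicate 2 (40.4% of all genes), 7 of them over 2-fold (16.6% of all genes). The 12 genes over 2-fold lower in replicate 2 were all early genes (20.2% of all genes): Atf3, Dusp2, Fos, Fosb, Ier3, Ier5, Jund, Klf2, Klf4, Maff, Nr4a1 and Nr4a2. Jun, Myc and Socs3 were early genes over 2-fold higher there.

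Of the chaperones, 4 had their highest level of all libraries in uninjured stellate replicate 2 (11.4% of all genes). Besides Hspa1a these were Dnajb1, Hsph1 and Hspa8, named here after their values were seen. Dnajb1, an HSP40 that delivers clients to HSP70, had 80.3 and 39.9 CPM in Gli1+ BDL, 56 and 79.3 CPM in Gli1+ uninjured, 70.5 and 51.9 CPM in stellate BDL and 88.6 and 467 CPM in stellate uninjured libraries. Hsph1, which exchanges nucleotide on HSP70, had 63.6 and 41.4 CPM in Gli1+ BDL, 46.2 and 47.7 CPM in Gli1+ uninjured, 24.8 and 19.1 CPM in stellate BDL and 6.12 and 124 CPM in stellate uninjured libraries. Hspa8, the constitutive HSC70, had 135 and 107 CPM in Gli1+ BDL, 131 and 81.4 CPM in Gli1+ uninjured, 92.1 and 66.8 CPM in stellate BDL and 116 and 299 CPM in stellate uninjured libraries. In each the replicate 2 value exceeded the other 7 libraries, and for Hsph1 replicate 1 was the lowest of all. The 8 macrophage markers were each lowest in replicate 2 and highest in replicate 1, so the content of other cells differed as well, and its part in the early gene and chaperone differences was not tested.

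**Figure D5:**
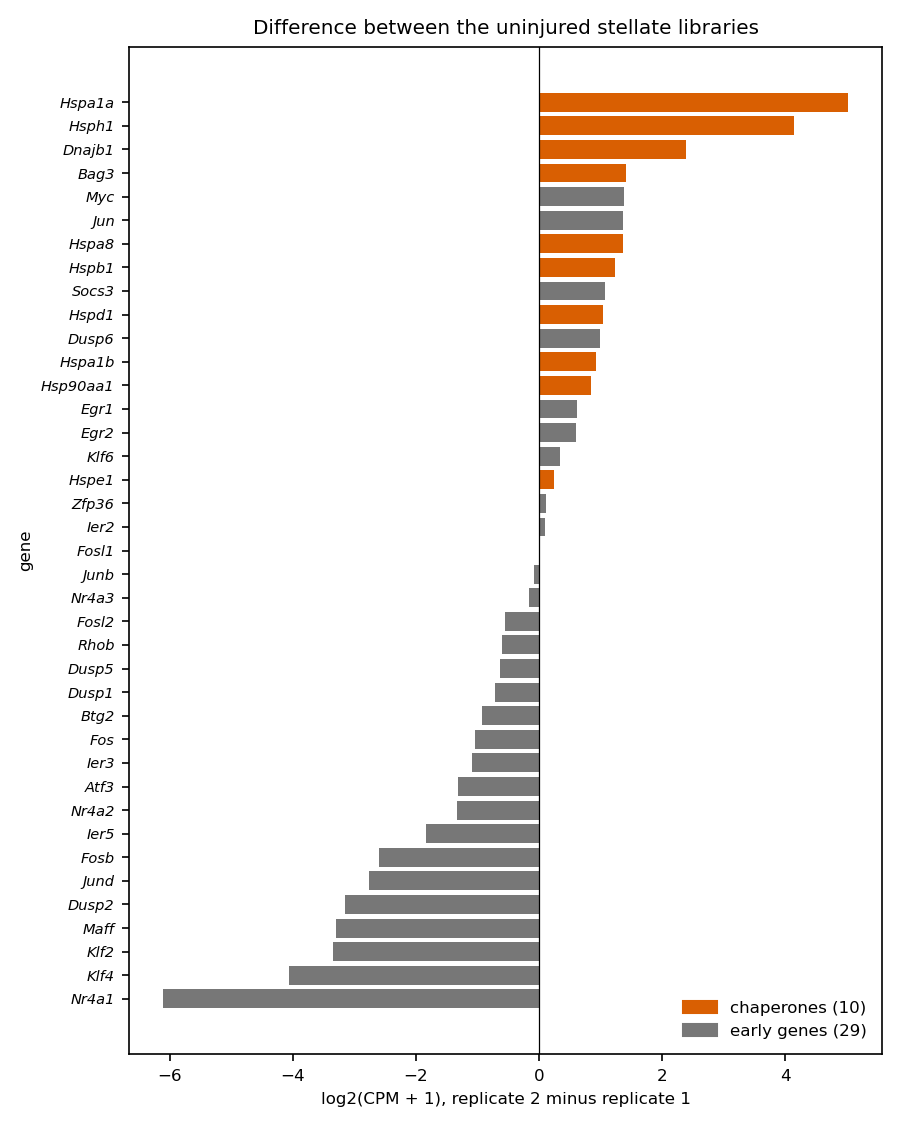
Difference in log2(CPM + 1) between the uninjured stellate libraries, replicate 2 minus replicate 1, for each gene tested (bars; chaperones in orange, early genes in grey). Hspa1a (5.02), Hsph1 (4.14) and Dnajb1 (2.39) lie at one end and Nr4a1 (-6.11) and Klf4 (-4.07) at the other.

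The comparisons that use uninjured stellate cells moved with the library left out. These comparisons share their libraries and are not independent of each other. The median log2 fold change of the chaperones in stellate cells, BDL against uninjured, was -0.30 with all libraries, -1.33 without uninjured stellate replicate 1 and 0.27 without replicate 2. Values below 0 numbered 7, 9 and 4 of 10 in the same order. The early gene median was 0.98, 1.64 without replicate 1 and 0.40 without replicate 2. Without replicate 1, limma called Fosb, Fosl2, Ier3, Klf4 and Nr4a1 higher and Dnajb1 (-2.93, adjusted p = 0.0368) and Hspa1a (-5.53, adjusted p = 0.0442) lower after BDL. In uninjured Gli1+ against stellate cells the chaperone median was 0.54 with all libraries, -0.19 without replicate 1 and 1.17 without replicate 2. The early gene median there was 0.66, 1.42 without replicate 1 and 0.18 without replicate 2, when the median over all genes was 0.25. Without replicate 2, Bag3 (2.19) and Hsph1 (2.75) joined the genes called higher in Gli1+ cells there, and Dusp6 was no longer called lower. Without replicate 1, Fosb (2.69), Ier3 (2.08), Jund (4.13), Klf2 (3.52), Klf4 (6.03) and Nr4a1 (6.01) joined the genes called higher instead. In that fit Dnajb1 (-2.79) joined Dusp6 as called lower, and Egr1 was no longer called. Each of these fits rests on 1 uninjured stellate library. The difference of responses had an early gene median of -1.67 with all libraries, -1.89 without replicate 1 and -1.19 without replicate 2. Its chaperone median was 0.71, 1.74 without replicate 1 and -0.02 without replicate 2, with 8, 10 and 5 of 10 above 0.

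Upstream sequence, as RefSeq gives it on GRCm38.p6, is shown only for chaperones that hold a match to the heat shock element. Shown are Hspa1a, Hspa1b and Hsph1, which like all 10 chaperones were higher in uninjured stellate replicate 2. Hspe1 is added because its window holds a longer element, and Hspb1 because it was called between the populations. Each run holds the 130 bases before the annotated start, 5′ to 3′ in the sense of the gene. Capitals mark facing pairs of the heat shock element unit, GAANNTTC or TTCNNGAA. The runs lie at chr17:34972157-34972286 and chr17:34959239-34959368 (both minus strand), chr5:149636316-149636445 (minus strand), chr1:55088018-55088147 (plus strand) and chr5:135887789-135887918 (plus strand).
Hspa1a: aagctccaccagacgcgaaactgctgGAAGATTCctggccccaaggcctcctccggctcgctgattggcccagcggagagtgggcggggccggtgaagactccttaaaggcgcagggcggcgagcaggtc
Hspa1b: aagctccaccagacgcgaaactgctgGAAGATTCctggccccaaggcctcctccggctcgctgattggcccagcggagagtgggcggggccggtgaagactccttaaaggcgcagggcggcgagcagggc
Hsph1: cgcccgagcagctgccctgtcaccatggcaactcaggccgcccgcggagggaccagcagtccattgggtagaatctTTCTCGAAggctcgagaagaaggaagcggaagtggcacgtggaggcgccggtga
Hspe1: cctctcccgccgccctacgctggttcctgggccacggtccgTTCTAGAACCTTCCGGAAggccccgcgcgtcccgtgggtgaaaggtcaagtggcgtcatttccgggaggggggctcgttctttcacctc
Hspb1: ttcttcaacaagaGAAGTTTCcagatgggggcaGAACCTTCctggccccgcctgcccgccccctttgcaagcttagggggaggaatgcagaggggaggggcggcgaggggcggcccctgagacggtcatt
The Hspa1a and Hspa1b runs differ at 1 of 130 bases. Over the 250 bases before the start, read on both strands, a pair was found in 6 of 8 chaperones with a sequence (Hspa1a, Hspa1b, Hspb1, Hspd1, Hspe1 and Hsph1), in 3 of 25 early genes (Egr2, Fosl2 and Jun) and in 12.8% of 32851 promoter windows. For this and the motifs below, a gene counted if any annotated start held a match, whereas windows were counted singly. Dnajb1, Egr2, Hspd1, Hsph1 and Maff had several starts, which favours a match in them. Dnajb1 and Bag3, both over 2-fold higher in uninjured stellate replicate 2, had no pair. Hspa8 and Hsp90aa1 had no sequence to search. The longer run of 3 units, GAANNTTCNNGAA or TTCNNGAANNTTC, which contains the pair, occurred in Hspd1 and Hspe1 and in 0.466% of windows. These genes start 216 bases apart and face away from each other, so their windows share sequence. A match is a description of letters, not of binding.

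For the early genes the motif searched first was the CArG box bound by SRF, shown in capitals for Zfp36, the gene with such a match that was called lower in Gli1+ than in stellate cells after BDL (chr7:28379229-28379358, minus strand).
Zfp36: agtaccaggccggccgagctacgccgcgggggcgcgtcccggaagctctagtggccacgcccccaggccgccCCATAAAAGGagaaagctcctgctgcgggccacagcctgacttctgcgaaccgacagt
It was found in 3 of 25 early genes with a sequence (Dusp5, Egr2 and Zfp36), in no chaperone and in 1.47% of windows. Of the other early genes called lower in Gli1+ than in stellate cells after BDL, Junb had no match. Egr1 and Ier2 had no sequence to search, nor had Fosl1, Egr3 and Myc. Bases beyond the 250 before the start were not searched. The cyclic AMP element TGACGTCA occurred in Btg2, Dusp1 and Maff (1.55% of windows), and the AP-1 site TGAGTCA in Bag3 (4.46% of windows). Neither overlaps the other motifs searched by its letters.

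Other genes of these pathways were tested as lists. Among 25 further early response genes, 20 had log2 fold changes above 0 in stellate cells after BDL (60.8% of all genes), with a median of 1.12 beside 0.19 over all genes. In Gli1+ cells 15 of 25 were below 0 (43.7% of all genes), with a median of -0.08 beside 0.12 over all genes. No gene of the list was called in either. In uninjured liver 2 were higher in Gli1+ than in stellate cells (8.06% of all genes), Nfkbiz (1.92, limma adjusted p = 0.0117), a nuclear IkB protein, and Sik1 (3.16, limma adjusted p = 0.0316), a CREB-regulated kinase, and 1 was lower (3.02% of all genes), Sgk1, a kinase related to AKT (-2.50, limma adjusted p = 0.0271). After BDL 3 were lower in Gli1+ cells (2.36% of all genes) and none higher (4.44% of all genes): Cebpd, a leucine zipper factor of the acute phase (-2.61, limma adjusted p = 0.0192), Id3, an inhibitor of basic helix-loop-helix factors (-2.08, limma adjusted p = 0.0227) and Irf1, an interferon response factor (-1.40, limma adjusted p = 0.0439). The difference of responses was below 0 for 22 of 25 (55.2% of all genes), with a median of -1.37 beside -0.12 over all genes, and none passed.

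Of 20 regulators that act upstream (SRF and its partners, CREB, MAP kinases and the Egr corepressors), only Nab2 was called. It encodes a corepressor that Egr1 itself induces and was higher in Gli1+ than in stellate cells of uninjured liver (2.79, limma adjusted p = 0.0231), where 8.06% of all genes were called higher. The list as a whole leaned little, with medians from -0.18 to 0.41 over the 5 comparisons. Of these 7 calls in both lists, edgeR made those of Nfkbiz and Cebpd only. Each was lost when a library was left out, with a highest limma adjusted p of 0.0588 for Nfkbiz, 0.105 for Nab2, 0.114 for Sik1 and 0.125 for Sgk1 without a Gli1+ uninjured library, and of 0.171 for Id3, 0.194 for Cebpd and 0.238 for Irf1 without a stellate BDL library.

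Of 24 heat shock factors and further chaperones, limma called 0 in every comparison. At an unadjusted p under 0.05 it listed 2, 4, 3, 1 and 1 of them in the Gli1+ response, the stellate response, the populations in uninjured liver, the populations after BDL and the difference of responses. In the same order, 1812, 1968, 3954, 3216 and 1230 of all 16446 genes were listed at that level. The most abundant genes of this list of 24 were Hsp90ab1, the constitutive HSP90, and Serpinh1, the collagen chaperone HSP47. Hsp90ab1 had 1648 and 1413 CPM in Gli1+ BDL, 1403 and 1000.4 CPM in Gli1+ uninjured, 1102 and 1002 CPM in stellate BDL and 1016 and 1922 CPM in stellate uninjured libraries. Serpinh1 had 243 and 293 CPM in Gli1+ BDL, 689 and 737 CPM in Gli1+ uninjured, 373 and 352 CPM in stellate BDL and 575 and 1593 CPM in stellate uninjured libraries. Both were highest in uninjured stellate replicate 2, and Serpinh1 was lower after BDL without overlap in each population (-1.41 in Gli1+ cells, limma adjusted p = 0.246, and -1.40 in stellate cells, limma adjusted p = 0.258).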

How the data were processed

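RNA of sorted cells was made into SMART-Seq2 libraries, per the labels' protocols. The authors deposited CPM, in a column headed as normalized counts. Per the submitters' processing notes, the tools were FastQC, STAR 2.5.2b, featureCounts and DESeq2 with build mm10, roles unstated. For annotation, strand and multiply mapped reads, nothing is given in the sources used here. Each library summed to 1000000 and 100% of values were whole multiples of 1 read within 0.1 read, so whole reads were recovered for the alternative count tests. Of the 30395 identifiers, 30233 matched GENCODE vM21 on GRCm38, the source of symbols and of 1-based coordinates.

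The main test was limma-trend (version 3.58.1 of limma, under R 4.3.3) on log2(CPM + 1), a scale that understates changes of low genes. A single fit of the 4 groups used the 8 libraries (residual degrees of freedom, 4) and the 16446 genes that reached 1 CPM in 2 or more libraries, with Benjamini-Hochberg adjustment at 0.05. Alternatives were edgeR 4.0.16 and DESeq2 1.42.0 on recovered reads, TMM scaling, a pseudocount of 0.1, no filter, the libraries compared alone, a replicate block and each library left out. The scripts were tested on simulated data. CPM has no scaling beyond the total: over all genes the median log2 fold change came to 0.12, 0.19, 0.32, 0.23 and -0.12 in the Gli1+ response, stellate response, uninjured populations, BDL populations and difference of responses, and 0.08, 0.11, 0.14, 0.09 and -0.08 after TMM scaling. Libraries held 11261775 to 19180370 reads, and 3 reads were 0.156 to 0.266 CPM. Intervals and bounds cover counting error only, since PCR copies are not independent molecules.

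The members and lists were chosen with earlier results of these data known. A member has its value in every library in the text if it was called, was among the 12 highest by mean CPM, or had no overlap with a log2 fold change of at least 2. Of list genes, up to 3 called per direction are named, or else the 2 of highest mean CPM. Of 129 list genes 1 was not found by symbol.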

Additional observations from a re-analysis of the deposited data

How the results depend on the processing

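For the gene values given or named with a direction, 976 of 1164 log2 fold changes under the alternatives kept direction and side of the threshold, 116 lost a call, 38 gained one and 34 changed sign. Over all members, 133 of 2886 changed sign, 98 of them with a library left out, and 0 of these were called in either fit. With all libraries, limma called 0 higher and 0 lower members for the Gli1+ response, 1 and 0 for the stellate response, 3 and 1 between populations in uninjured liver, 1 and 4 after BDL, and 0 and 0 for the difference of responses. DESeq2 called 0 and 1, 6 and 2, 5 and 2, 1 and 9, and 0 and 2. With edgeR these were 0 and 0, 1 and 0, 2 and 0, 0 and 1, and 0 and 0, and with TMM scaling 0 and 0, 1 and 0, 2 and 1, 0 and 5, and 0 and 0. Testing all 30395 genes without a filter left 1 higher member in uninjured liver and 0 elsewhere. The pseudocount of 0.1 gave 4 and 1 in uninjured liver and 1 and 3 after BDL. Fits of only the libraries compared called 0 in uninjured liver, 0 in the stellate response and 1 and 4 after BDL. Among those 4, Fosb and Rhob took the place of Ier2 and Zfp36. Why the counts moved was not tested.

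Leaving out each library in turn gave 0 to 5 higher and 0 to 2 lower members for the stellate response, 1 to 8 higher and 0 to 2 lower in uninjured liver, 0 to 1 higher and 0 to 6 lower after BDL, and 0 to 3 lower for the difference of responses. The counts of 5, 8 and 3 were those without uninjured stellate replicate 1. Same-numbered replicates showed correlations of -0.11 to 0.11 in their deviations from group means, so the numbers were not taken to pair libraries. The fit with the replicate block called 4 higher and 0 lower in uninjured liver, adding Klf4 and dropping Dusp6, 1 and 3 after BDL, dropping Junb, and 1 higher in the stellate response.

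Signs changed as follows among the named values. In the stellate response Hsp90aa1 had a log2 fold change of 0.10, against -0.017 with TMM scaling, -0.11 with edgeR, -0.15 with DESeq2 and -0.33 to 0.52 with a library left out. Nr4a1 had 2.09, against -0.0096 with edgeR, -0.086 with DESeq2 and -0.96 to 5.14 with a library left out, and Klf4 had 1.98, against -0.053 to 4.01 with a library left out. In uninjured liver Klf6 had 0.05, against -0.18 with TMM scaling, -0.19 with edgeR, -0.16 with DESeq2 and -0.15 to 0.26 with a library left out. Myc had 0.05, against -0.18, -0.37, -0.33 and -0.64 to 0.75 in that order, and Ier2 had 0.15, against -0.080, -0.084 and -0.060 with the first 3. Hsph1 had 0.68, against -0.78 with edgeR, -0.74 with DESeq2 and -1.39 to 2.75 with a library left out. After BDL Ier5 had 0.02, against -0.14 with TMM scaling, -0.059 with edgeR, -0.0077 with DESeq2 and -0.55 to 0.59 with a library left out, and Hspa1a had 0.04, against -0.036 with the pseudocount of 0.1, -0.094 with TMM scaling and -1.03 to 1.11 with a library left out. For Dusp6 the difference of responses was 0.47, against -0.028 to 0.96 with a library left out. Chaperone medians of the stellate response and of the difference of responses were -0.99 and 1.36 with edgeR and -1.04 and 1.37 with DESeq2, and the early gene median in uninjured liver was 0.37 with edgeR and 0.38 with DESeq2.

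Over all genes, limma called 0, 37, 1822, 1118 and 2 in the order of the comparisons given first, edgeR 0, 62, 1217, 621 and 11, and DESeq2 406, 1006, 2996, 1653 and 389. Without the filter the counts were 127, 6, 810, 775 and 0, with the pseudocount of 0.1 the stellate response had 97, with TMM scaling 23, and with the replicate block 18. Only the libraries compared gave 0 in the first 3. With 2 libraries per group, a member that misses the threshold is not shown to be equal between groups, and in the libraries with fewest reads 3 reads correspond to 0.266 CPM.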
